A study of Mus musculus with 6 samples.

Results

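The FOS and JUN genes of the AP-1 transcription factor and the EGR genes were read in TM3 cells kept with or without 4-nitrophenol (PNP, written nPNP in some labels). The 10 genes were Fos, Fosb, Fosl1, Fosl2, Jun, Junb, Jund, Egr1, Egr2 and Egr3, of 23462 gene symbols named on the array. They were taken by name as families, and every probe whose transcript accession belongs to one of them was read on its own, which gave 16 probes. TM3 is a single line of male mouse cells that came from Leydig cells, the androgen-making cells of the testis, and the labels call it a testicular somatic line. The control group was 3 samples after 24 h at 0 µM PNP, with the treatment given as none, and the PNP group was 3 samples after 24 h at 10 µM. No genotype or other agent is given in the labels, and no vehicle is named for either group. Nothing in the labels says whether replicates were grown as separate cultures. The p-values therefore rest on the spread among these samples alone, and that spread may be technical.

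AP-1 is a dimer of basic leucine zipper proteins, either JUN with JUN or JUN with FOS, that binds the TRE and CRE elements of promoters and enhancers. The EGR proteins are zinc finger factors that bind a GC-rich element, and the NAB proteins repress them. Most of these genes are immediate early genes: growth factors, stress or cAMP switch them on within minutes through ERK kinases, SRF with its ELK partners and CREB, and the transcripts are soon degraded. In Leydig cells luteinizing hormone acts through cAMP, and FOS and JUN proteins are known to act on the promoter of Star, which brings cholesterol into mitochondria. A single reading after a day therefore shows the level that remains, not the first wave.

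The stretch just before the gene's start holds elements through which these genes are switched on, and 4 are shown because they carry a known element next to genes the results turn on. Each is the 250 bases before the start on the gene's own strand, from RefSeq, build GRCm38.p6, in lower case with the matched elements in capitals. The Fos stretch lies at chr12:85473640-85473889, plus strand, the Fosb stretch at chr7:19310046-19310295, minus strand, the Jun stretch at chr4:95052223-95052472, minus strand, and the Egr2 stretch, one of 5 Egr2 starts in the table, at chr10:67537619-67537868, plus strand.
Fos: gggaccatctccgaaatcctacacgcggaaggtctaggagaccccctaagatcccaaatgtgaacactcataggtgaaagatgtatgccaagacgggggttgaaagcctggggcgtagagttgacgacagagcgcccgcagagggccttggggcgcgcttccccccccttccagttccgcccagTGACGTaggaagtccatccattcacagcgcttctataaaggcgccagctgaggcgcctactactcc
Fosb: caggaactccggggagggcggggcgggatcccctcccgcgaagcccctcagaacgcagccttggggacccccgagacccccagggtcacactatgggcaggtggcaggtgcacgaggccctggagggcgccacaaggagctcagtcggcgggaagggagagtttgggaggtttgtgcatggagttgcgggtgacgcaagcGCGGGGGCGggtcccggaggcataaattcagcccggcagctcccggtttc
Jun: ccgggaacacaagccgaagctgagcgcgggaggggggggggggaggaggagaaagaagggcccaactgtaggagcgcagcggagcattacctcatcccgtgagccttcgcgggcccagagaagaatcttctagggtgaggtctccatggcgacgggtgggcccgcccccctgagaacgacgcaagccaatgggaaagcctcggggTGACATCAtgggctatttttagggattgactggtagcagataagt
Egr2: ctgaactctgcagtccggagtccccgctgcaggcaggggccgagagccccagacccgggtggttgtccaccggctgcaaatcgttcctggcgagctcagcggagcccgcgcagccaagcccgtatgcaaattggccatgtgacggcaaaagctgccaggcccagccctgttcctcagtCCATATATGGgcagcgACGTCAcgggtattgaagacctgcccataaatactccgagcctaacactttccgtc
The Fos stretch holds TGACGT, the core of a CRE, 66 bases before the start. The Fosb stretch holds the EGR element GCGGGGGCG 50 bases before the start, and the Jun stretch holds TGACATCA, a TRE variant, 45 bases before it. In Egr2 a CArG box, the element bound by SRF, begins 72 bases before the start, and TGACGT follows on the opposite strand, 56 bases before it.

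The search covered both strands of 11 promoters of 7 of the 10 genes, without Fosl1, Egr1 and Egr3. Over all 32851 promoters of the table, 4.46% held TGACTCA, 6.47% held TGACGT, 1.55% held TGACGTCA, 2.93% held TGACATCA, 3.06% held GCGTGGGCG or GCGGGGGCG and 1.47% held a CArG box. TGACGTCA contains TGACGT, so those shares overlap. Of the other genes, Fosl2 held an EGR element 79 bases before its start, and the stretches of Junb and Jund held none of the letters searched. The Egr2 starts differed. The stretch at chr10:67535249-67535498 held none of the letters, and that at chr10:67537316-67537565 held a CArG box alone. The remaining Egr2 stretches overlap the one shown and hold the same elements. These matches describe the sequence and are not binding sites measured here.

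Signals were read as the scaled log2 signal, which is the log2 of the background-subtracted spot brightness minus the array's 75th percentile, so 0 stands at that percentile and positive values are bright probes. Levels are compared between arrays for a given probe and not between probes, since probes differ in how well they capture their target. The 75th percentile of brightness before scaling ran from 4503 on PNP replicate 1 to 5798 on control replicate 3, with group means of 5571 ± 218 (SD, n = 3) for control and 4941 ± 399.6 (SD, n = 3) for PNP arrays (exact two-sided permutation p = 0.1, the smallest that 3 against 3 can give). Spots marked as non-uniform or outlying made up 7.75% ± 1.27 (SD, n = 3) on control and 12.3% ± 0.814 (SD, n = 3) on PNP arrays (exact permutation p = 0.1). The share of spots above background was 62.1% ± 0.240 (SD, n = 3) and 61.6% ± 1.47 (SD, n = 3), with an exact permutation p of 0.9, and 0 spots were saturated. The part of these differences in the values below was not tested. Of 7 Leydig cell markers named on the array, 5 were above background on at least 1 array, among them Star, Nr5a1 and Scarb1, while Cyp11a1 and Lhcgr, which define hormone-responsive Leydig cells, were not. All 6 stromal markers, such as Col1a1, were above background on at least 1 array, as were 3 of 5 Sertoli, 3 of 4 germ cell, 3 of 5 macrophage or leukocyte and 1 of 4 endothelial markers. None of the germ cell or endothelial markers could be tested. Ptprc and Adgre1, which define leukocytes and macrophages, were not above background on any array.

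Did FOS, JUN and EGR transcripts stand at other levels after a day with PNP? No probe passed the test. In RNA from whole cultures, fewer cells with a transcript and less of it per cell cannot be told apart. Of the 16 probes, 15 were above background in a group, against 33335 of 56605 over the array. Of these 15 probes, 12, of 8 genes, could be tested. The other 3, the sole Fos and Egr1 probes and one of the Jund probes, had too few values left once spots marked as outliers were set aside. Over the array 18.3% of probes above background were left out in this way. On the higher side the differences of largest size were those of Egr2, a zinc finger factor of nerve and immune cells, at 0.36 (SE 0.18), and of Fosb, a FOS protein known for long-lived forms, at 0.33 (SE 0.15). On the lower side a dim Egr3 probe, A_52_P440836, stood at -0.38 (SE 0.33). It and Fosb A_55_P2744102 were above background on 3 control but only 2 PNP arrays. Both were thus admitted to the test through the control group alone, so their lower signs are not independent of that filter. With limma, 0 of 12 probes had an adjusted p below 0.05, against 0 of 27221 over the array (0%), and the smallest was 0.722. Without adjustment 0 of 12 had a p below 0.05, against a background of 6.99% of all tested probes.

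The direction was that of the array as a whole. The PNP mean was the higher for 8 of 12 probes, and for 63.4% of all tested probes. With each array centred on its median instead, 7 of 12 were higher, against a background share of 47.0%. Among probes above background on all arrays, 8 of 10 were higher, against 64.4% of all such probes. The median log2 difference was 0.07 over the 12 probes and 0.05 over all. The PNP values lay wholly above the controls for 1 of 12 probes, a Junb probe, against 10.5% of all probes. They lay wholly below for none of the 12, where the share was only 3.04% of 33335 probes with outlier spots kept.

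**Figure D1:**
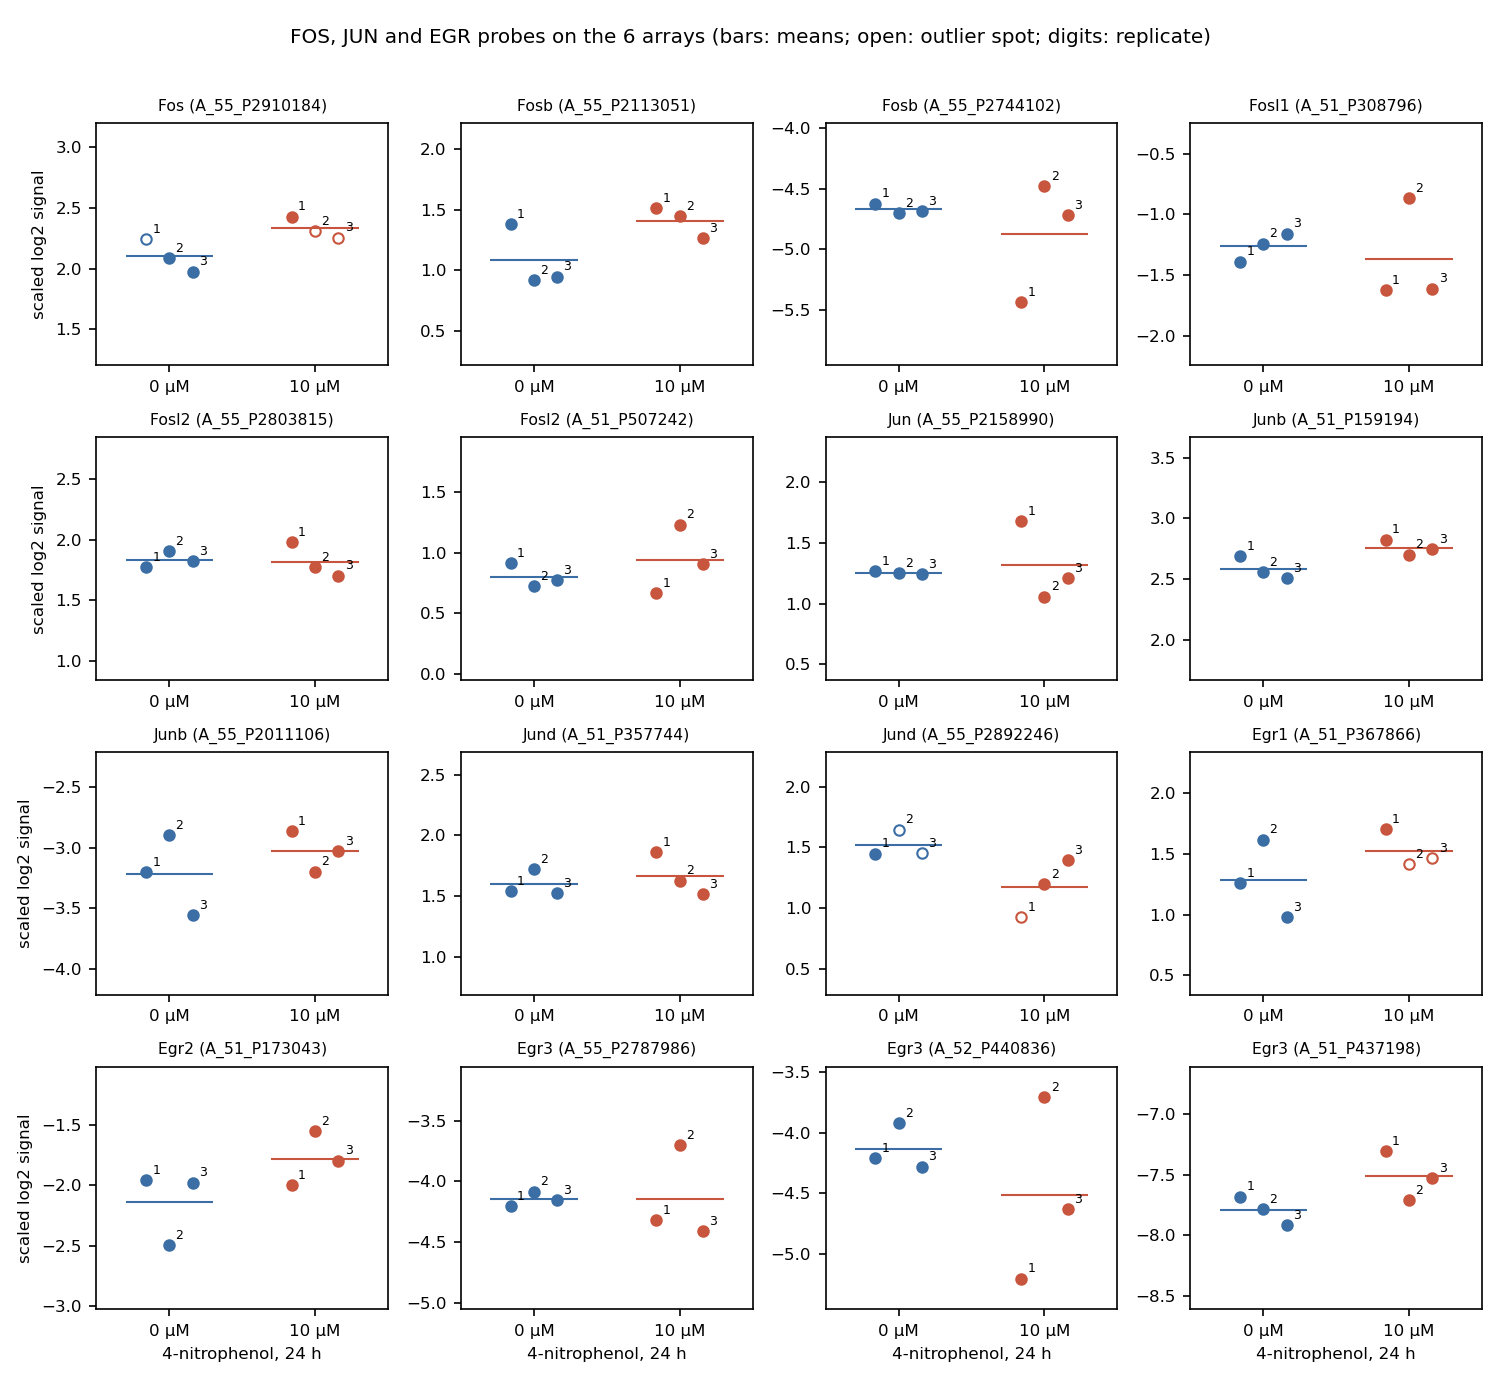
Scaled log2 signal (vertical axis, log2 units) of each probe of the 10 genes on the 3 control and the 3 PNP arrays. Digits name the replicate, open points are spots marked as outliers and every panel spans 2 log2 units. Most panels overlap between groups, and the dim Egr3 probe A_52_P440836 has the widest spread, from -5.20 to -3.71 with PNP.

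Fos, the partner of JUN proteins that cannot form a dimer with itself, had scaled log2 signals of 2.24, 2.09 and 1.97 in control replicates 1, 2 and 3 and of 2.43, 2.31 and 2.26 in PNP replicates 1, 2 and 3. All PNP values lay above the highest control, by as little as the step from 2.24 to 2.26. The spots of control replicate 1 and of PNP replicates 2 and 3 were marked as non-uniform, so the probe was left out of the test. With those spots kept the difference was 0.23 (SE 0.11, 95% interval -0.03 to 0.49), with group means of 2.10 ± 0.13 (SD, n = 3) and 2.33 ± 0.09 (SD, n = 3) and an adjusted p of 0.788 with limma. That setting made 0 calls among 33335 probes (0%), and 8.94% of its probes had PNP values wholly above the controls. Before scaling, the Fos spot read 25328, 23626 and 22780 in controls and 24248, 26228 and 24045 with PNP. In the authors' deposited table the Fos controls had log2 values of 14.57, 14.51 and 14.34 and the PNP arrays 14.71, 14.64 and 14.63, again without overlap. On the unscaled brightness the groups overlapped, and PNP replicate 1, which had the highest scaled value, was the array with the lowest 75th percentile.

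Fosb was read by a bright and a dim probe. The bright probe A_55_P2113051 had 1.38, 0.92 and 0.95 in controls and 1.52, 1.45 and 1.27 with PNP. PNP replicate 3 lay below control replicate 1, so the groups overlapped. The means were 1.08 ± 0.26 (SD, n = 3) and 1.41 ± 0.13 (SD, n = 3), a 1.25-fold ratio (95% interval 0.990 to 1.59) with a limma adjusted p of 0.722. The dim probe A_55_P2744102 pointed the other way, with -4.62, -4.70 and -4.68 in controls and -5.44, -4.48 and -4.71 with PNP. PNP replicate 1, where this probe was not above background, carried its difference of -0.21 (SE 0.22, adjusted p = 0.887), which was 0.07 without that array.

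Fosl1 and Fosl2, FOS relatives that lack the strong activation domain of FOS, stood near their control levels on average, with spread in PNP. Fosl1, a target of AP-1 itself, had -1.39, -1.24 and -1.16 in controls and -1.62, -0.87 and -1.61 with PNP. PNP replicate 2 lay above every control and the other PNP arrays below every control. The difference was -0.10 (SE 0.20, 95% interval -0.57 to 0.36, adjusted p = 0.935), and -0.36 without PNP replicate 2. Fosl2 probe A_55_P2803815 had 1.78, 1.91 and 1.83 in controls and 1.98, 1.77 and 1.71 with PNP, a difference of -0.016 (SE 0.11, adjusted p = 0.984). The other Fosl2 probe, A_51_P507242, had 0.91, 0.73 and 0.77 against 0.67, 1.23 and 0.91, a difference of 0.13 (SE 0.15, adjusted p = 0.890). Its highest array was PNP replicate 2 and its lowest PNP replicate 1, the reverse of the first Fosl2 probe in regard to PNP replicate 1.

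Among the JUN genes, Jun, the AP-1 subunit that drives its own promoter through the TRE variant shown above, had 1.27, 1.25 and 1.24 in controls and 1.68, 1.06 and 1.21 with PNP. The controls were nearly level, with a SD of 0.011, while the PNP arrays lay on both sides of them, with a SD of 0.33. The difference was 0.06 (SE 0.16, 95% interval -0.31 to 0.43, adjusted p = 0.951), and it was -0.12 without PNP replicate 1. So the value for Jun takes its sign from 1 array.

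Junb, a JUN protein that often restrains JUN, was the one tested gene with a probe whose groups did not overlap. Probe A_51_P159194 had 2.69, 2.56 and 2.51 in controls and 2.83, 2.70 and 2.75 with PNP. PNP replicate 2, at 2.70, lay just above control replicate 1, at 2.69. The means were 2.59 ± 0.09 (SD, n = 3) and 2.76 ± 0.06 (SD, n = 3), a ratio of 1.13 (95% interval 0.957 to 1.33, adjusted p = 0.775). In the authors' deposited table the controls had log2 values of 15.03, 15.01 and 14.89 for this probe and the PNP arrays 15.06, 15.02 and 15.14, so PNP replicate 2 lay within the controls. The dim probe A_55_P2011106 had -3.20, -2.90 and -3.56 in controls and -2.86, -3.20 and -3.03 with PNP. Its difference, 0.19 (SE 0.18, adjusted p = 0.861), had the sign of the bright probe, with overlapping groups.

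Jund, the JUN protein that is expressed steadily in most resting cells, gave probes of opposite sign. Probe A_51_P357744 had 1.54, 1.72 and 1.52 in controls and 1.86, 1.63 and 1.51 with PNP, a difference of 0.07 (SE 0.12, adjusted p = 0.927) that was -0.024 without PNP replicate 1. Probe A_55_P2892246 had 1.45, 1.65 and 1.45 in controls and 0.93, 1.20 and 1.39 with PNP. All PNP values of the latter lay below the lowest control, but control replicates 2 and 3 and PNP replicate 1 were spots marked as outliers. With those spots kept the difference was -0.34 (SE 0.14, 95% interval -0.67 to -0.022), and the unadjusted p of 0.0391 became an adjusted p of 0.777. In the authors' deposited table its controls had 13.78, 14.05 and 13.80 and its PNP arrays 13.27, 13.54 and 13.76, also without overlap. Over all probes with outlier spots kept, 6.38% had an unadjusted p below 0.05 and 3.04% had PNP values wholly below the controls. PNP replicate 1 was the highest array for the first probe and the lowest for the second, so the pair gives no common direction for Jund. The probes are assigned to different transcript records of Jund, and the part of that in their signs was not tested.

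Of the EGR genes, Egr1, a factor induced by hormones and growth factors that regulates the pituitary luteinizing hormone gene, had 1.26, 1.62 and 0.98 in controls and 1.70, 1.41 and 1.47 with PNP. Controls spread more widely than PNP arrays, and PNP replicates 2 and 3, both marked as non-uniform, lay inside the control range. With those spots kept the difference was 0.24 (SE 0.17, 95% interval -0.15 to 0.63, adjusted p = 0.831).

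Egr2 had -1.96, -2.49 and -1.98 in controls and -2.0, -1.55 and -1.80 with PNP. PNP replicate 1 lay within the controls and the other PNP arrays above them. The means were -2.14 ± 0.30 (SD, n = 3) and -1.78 ± 0.22 (SD, n = 3), a 1.28-fold ratio (95% interval 0.967 to 1.70, adjusted p = 0.739). Control replicate 2 was the low point, and without it the difference was 0.19.

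Egr3, a relative of EGR1 that takes part in muscle spindle and immune cell development, was read by 3 probes. Probe A_55_P2787986 had -4.21, -4.09 and -4.15 in controls and -4.32, -3.70 and -4.41 with PNP, a difference of 0.0062 (SE 0.18, adjusted p = 0.997). PNP replicate 2 lay above every control and the other PNP arrays below, and the difference was -0.22 without PNP replicate 2. Probe A_52_P440836 had -4.21, -3.92 and -4.28 in controls and -5.20, -3.71 and -4.63 with PNP, a difference of -0.38 (SE 0.33, 95% interval -1.13 to 0.38, adjusted p = 0.849). Its order of PNP arrays resembled the first probe in that replicate 2 was the highest, and it was not above background on PNP replicate 1. Without PNP replicate 1 its difference was -0.032, and without PNP replicate 2 it was -0.78. The last probe, A_51_P437198, did not reach well above background on a single array, so no ratio is given. It is assigned to another transcript record than the other Egr3 probes.

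**Figure D2:**
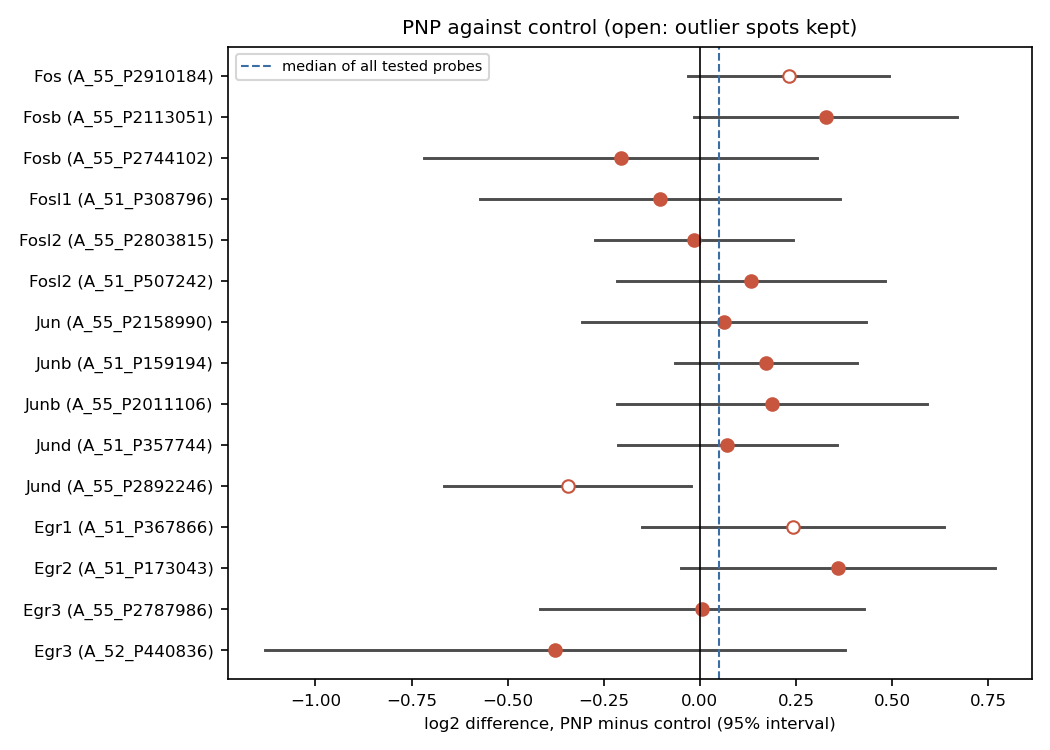
Difference in log2 signal, PNP minus control, for each of the 12 tested probes, as points with 95% intervals (horizontal axis, log2 units), and for the 3 probes with outlier spots kept, as open points. All 12 intervals of tested probes include 0, and that of Egr3 A_52_P440836 is the widest, from -1.13 to 0.38.

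The intervals rest on the spread between arrays within a group and make no allowance for slide position. For 11 of 12 probes the 95% interval lay within 2-fold in either direction (97.3% of all tested probes), and for 7 of 12 it lay within 1.5-fold (78.9% of all). Egr3 A_52_P440836 alone exceeded 2-fold, and its spread within groups was larger than that of 98.5% of tested probes. Those with an interval past 1.5-fold were both Fosb probes, the dim Junb probe, Egr2 and Egr3 A_52_P440836.

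The PNP arrays, not the controls, held the highest value of every tested probe of these genes. The highest array was PNP replicate 1 for 6 of 12 probes and PNP replicate 2 for 6, while over all probes measured on 6 arrays a PNP array was highest for 71.4%. A PNP array was also the lowest for 8 of 12, against 47.5% of all, so the PNP values often lay on both sides of the controls. The SD was larger in the PNP group for 8 of 12 probes and for 64% of all tested probes measured on 6 arrays. All 5 tested probes with a mean scaled log2 signal above 1 (bright Fosb, a Fosl2 probe, Jun, bright Junb and a Jund probe) were highest on PNP replicate 1. So were 62.5% of the 3850 probes that bright among those measured on 6 arrays. The other probe highest on PNP replicate 1 was Junb A_55_P2011106, at -2.86 against -2.90 on control replicate 2. Among the 5442 probes measured on 6 arrays with a mean below -4, PNP replicate 1 was highest for 18.7%. Of the 3 probes with a mean below -4, dim Fosb and both tested Egr3 probes, 2 were lowest on PNP replicate 1, against 17.5% of 5442 probes that dim. PNP replicate 1 was the dimmest array before scaling, and the part of that in these values was not tested.

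The position on the slide was also read, because the groups were laid out unevenly. All 6 arrays were on 1 slide, with control replicates 1 and 3 and PNP replicate 2 in odd columns and control replicate 2 and PNP replicates 1 and 3 in even columns. For Fosb A_55_P2113051 the difference was 0.28 within odd and 0.47 within even columns, for Egr2 it was 0.42 and 0.59, and for Junb A_51_P159194 it was 0.10 and 0.23. These genes, with Fosl2 A_51_P507242 (0.39 and 0.06), made up the 4 of 12 probes (33.3%) with higher PNP values within both column sets. The share was 36.9% over all tested probes measured on 6 arrays. With outlier spots kept, Fos had 0.20 and 0.25, Egr1 had 0.30 and -0.034, and Jund A_55_P2892246 was lower in both, at -0.25 and -0.49.

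Other probes took opposite signs. Fosl1 had 0.41 within odd and -0.38 within even columns, Egr3 A_55_P2787986 had 0.48 and -0.28, and Egr3 A_52_P440836 had 0.54 and -0.998. Dim Fosb had 0.18 and -0.37, whereas Jun had -0.20 and 0.19. In all, 5 of 12 probes (41.7%) had the same sign in both sets, against 51.6% of 23688 probes. A limma fit on either column set has a single array in 1 group and takes its spread from 2 arrays of the other, so its calls are given as counts and not read as results. On even columns, with 1 control, it passed 1 of 12 probes and 1.71% of all probes. The probe was Egr3 A_52_P440836, which was not above background on PNP replicate 1, one of those arrays. On odd columns, with 1 PNP array, it passed 0 of 12 and 1.79% of all.

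Slide rows were nearly split by group. All controls and PNP replicate 1 stood in row 1, and PNP replicates 2 and 3 stood alone in row 2, so a comparison within a row sets PNP replicate 1 against the controls. With slide row as a block, Jun differed by 0.43 in place of 0.06, Jund A_51_P357744 by 0.26 in place of 0.07 and Fosb A_55_P2113051 by 0.43 in place of 0.33. Egr2 differed by 0.14 in place of 0.36. The dim Fosb probe took -0.77 and Egr3 A_52_P440836 took -1.07, and neither was above background on PNP replicate 1. With limma 0 of 12 probes passed in that fit (smallest adjusted p = 0.539), and 3 of 12 had an unadjusted p below 0.05, where the fit over all probes had 1951 of 23688.

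**Figure D3:**
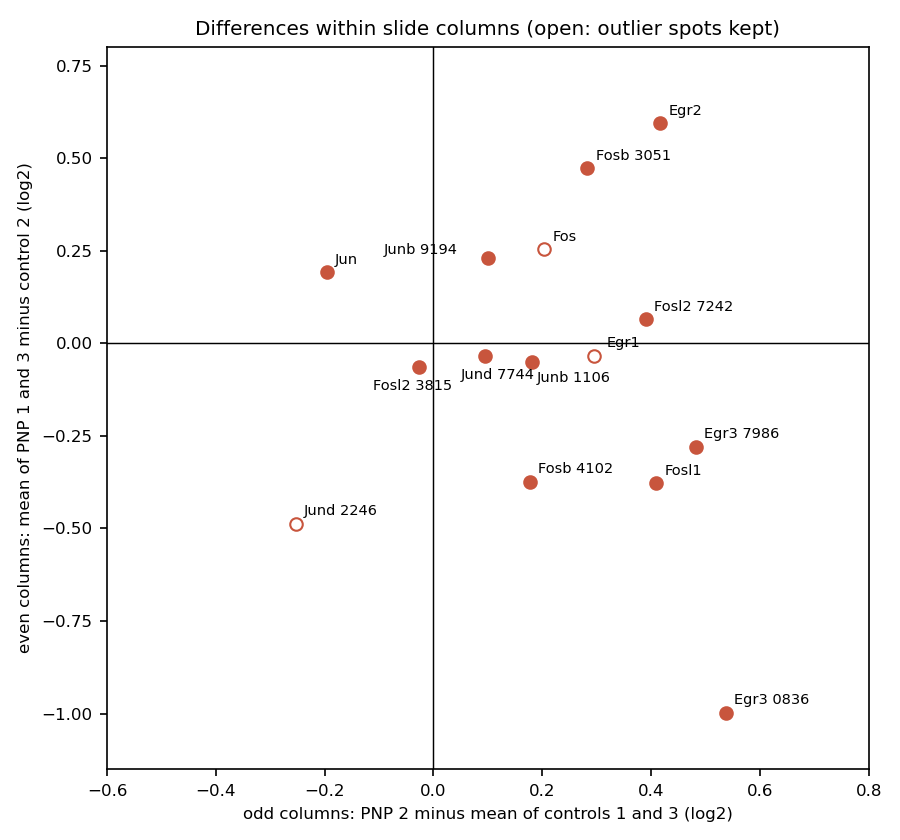
Log2 difference, PNP minus control, of each probe within odd slide columns (horizontal axis, PNP replicate 2 minus the mean of control replicates 1 and 3) and within even columns (vertical axis, mean of PNP replicates 1 and 3 minus control replicate 2). Points at the upper right, such as Egr2 at 0.42 and 0.59, are higher with PNP in both; those at the lower right, such as Egr3 A_52_P440836 at 0.54 and -0.998, have opposite signs.

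Genes around the FOS, JUN and EGR genes were read through their brightest tested probe. No list held a gene past the test, where the background was 0 of 13138 genes (0%) for adjusted p-values, 5.62% at an unadjusted p below 0.05 and 63% with a higher PNP mean. None of the 6 lists held a gene at an unadjusted p below 0.05. The median difference over all tested genes was 0.04. The adjusted p-values printed for single genes of the lists are those of the fit over 27221 probes.

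The partners that can replace FOS or JUN in a dimer had 7 of 13 genes tested, 3 higher and 4 lower in the PNP mean, with a median of -0.11. Those with the smallest p were Mafk, a small MAF protein, at -0.21 (SE 0.15, adjusted p = 0.819, without a value on control replicate 2) and Batf3, a repressor of AP-1 type, at -0.16 (SE 0.12, adjusted p = 0.825). Of the EGR relatives and NAB co-repressors only 2 of 6 could be tested. Nab2, which binds EGR proteins and represses them, stood at -0.17 (SE 0.15, adjusted p = 0.851) with its second probe of opposite sign. Sp1, which binds GC-rich sites that can overlap those of EGR1, stood at 0.14 (SE 0.14, adjusted p = 0.881).

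The kinases and factors that switch FOS and EGR genes on had 18 of 20 tested, 8 higher and 10 lower, with a median of -0.011. Elk1, the SRF partner phosphorylated by ERK, had 3.96, 3.79 and 3.91 in controls and 4.08 and 4.06 on PNP replicates 2 and 3. The difference was 0.18 (SE 0.12, adjusted p = 0.792), and Atf1, a CREB relative, stood at 0.16 (SE 0.11, adjusted p = 0.796). The list of ERK feedback genes held phosphatases and Sprouty-type inhibitors, many but not all of them induced by ERK signalling itself. It had 9 of 15 tested, 4 higher and 5 lower, with a median of -0.0073. Dusp8, a phosphatase of JNK and p38 kinases, stood at -0.38 (SE 0.19, adjusted p = 0.756) and Spred1, an inhibitor of RAS signalling, at -0.30 (SE 0.15, adjusted p = 0.754). Both rest on control replicates 2 and 3 and PNP replicates 1 and 3, and the second Spred1 probe had the opposite sign.

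Other immediate early genes had 28 of 39 tested, 19 higher and 9 lower, with a median of 0.09. Plk2, a kinase induced by serum, had 1.56, 1.34 and 1.47 in controls and 1.70, 1.72 and 1.62 with PNP, a difference of 0.23 (SE 0.10, adjusted p = 0.726). Zfp36l1, which promotes decay of AU-rich messenger RNAs, stood at 0.20 (SE 0.10, adjusted p = 0.744). In both genes the PNP values lay above every control, as they did for 10.5% of all tested probes. Both genes were named for having the smallest p of their list, a choice that favours such separation. Targets known for AP-1 or EGR1 had 24 of 30 tested, 9 higher and 15 lower, with a median of -0.017. Star had -3.81, -3.84 and -3.77 in controls and -4.36, -3.77 and -4.27 with PNP, so PNP replicate 2 was level with the controls and the even-column arrays lay below them. The Star difference was -0.33 (SE 0.16, adjusted p = 0.739). Hbegf, an EGF-family ligand induced by AP-1, had 0.06, 0.04 and 0.08 in controls and 0.27, 0.19 and 0.23 with PNP, a difference of 0.17 (SE 0.09, adjusted p = 0.756).

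**Figure D4:**
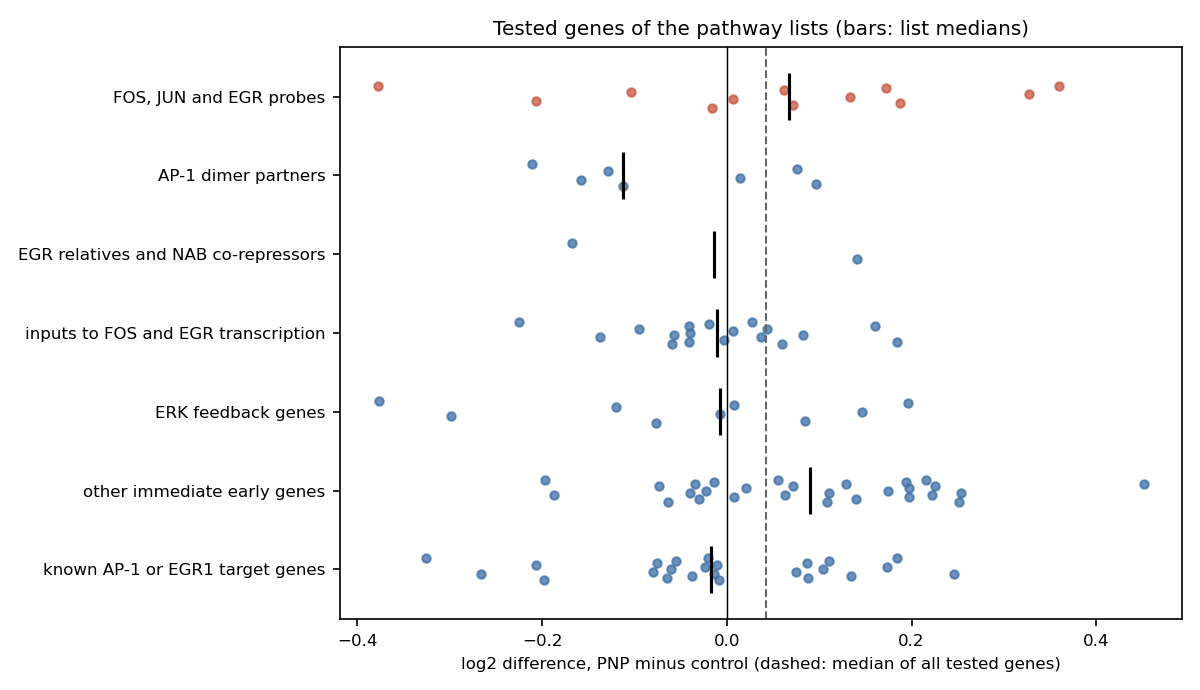
Log2 difference, PNP minus control (horizontal axis), of the 12 tested FOS, JUN and EGR probes and of each tested gene in the 6 lists around them, with a bar at each median and a dashed line at the median of all tested genes, 0.04. The list medians run from -0.11 for the dimer partners to 0.09 for other immediate early genes.

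Profiles over the 6 arrays were compared for Fos, Jun and Egr1 with 103 probes of the other members and of the lists, as the root mean square difference of centred log2 signals with outlier spots kept. Fos was closest to Junb A_51_P159194 (0.051 log2 units) and Plk2 (0.082). Egr1 was closest to the dim Junb probe A_55_P2011106 (0.049) and Ier2 (0.077), an immediate early gene. Jun was closest to Fn1 (0.075), the fibronectin gene, and Socs3 (0.082), an inhibitor of cytokine signalling. Both of these probes were marked as outliers on PNP replicate 1, the array where Jun was highest, so the likeness rests on marked spots there. These are descriptions over 6 arrays that share a slide, and the nearest profiles were picked for being near.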

How the data were processed

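Total RNA of the 6 samples was amplified, labelled with 1 dye and hybridised to Agilent arrays, per the labels' protocols. The labels name Cy3, while every signal column in the scanner files is of the red channel, so the dye is unsettled. The deposited scanner files give intensity values made with Agilent Feature Extraction 11.5.1.1, per the file headers, while the submitters' processing notes name 10.7. Log2 values stand in the table of normalized signals that the authors deposited. Its columns each correlated with their own array at r from 0.9996 to 1, each median was 8.27, and the direction is that of the scanner signal. The values are not centred on genes, and for the authors' normalization a method is not stated in the labels or headers.

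The tools were limma 3.58.1 in R 4.3.3, with data.table (version 1.17.8) for reading. The measure was log2 of the processed signal, from which the 75th percentile of the array's non-control probes was subtracted. Spots marked as outliers were left out and spots of 1 probe averaged. A probe was tested if well above background on all 3 arrays of a group and left with at least 2 values per group. Outlier spots removed 6114 (18.3%) of the 33335 probes that were above background, and 3 of the 15 read here. PNP was set against control in each of the 27221 tested probes by limma (lmFit, then eBayes, two-sided), with Benjamini-Hochberg adjustment over all of them. The procedure was tested on simulated data. Array measures were compared with exact permutation tests. Accessions named 33767 of 56605 probes through a RefSeq list of assembly GRCm38.p6, while the array was designed on mm9, per the file headers.

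The genes, the lists and the rule for naming genes (every member, 2 genes per list by smallest p and the 2 nearest profiles) were chosen with earlier results of these data known. Alternatives changed the scaling, background, filters, outlier spots, moderation, slide position and arrays. The normexp alternative used the median spot signal with an offset of 50, since the files hold no mean signal. Replicate numbers were not taken to pair samples. Same-numbered arrays correlated at -0.26, -0.18 and -0.027 in their deviations from the group means. Control replicate 1 with PNP replicate 2, both in odd columns, gave 0.22. Control replicate 2 with PNP replicate 1, both in even columns, gave 0.20. Sharing a column set did not always go with a higher value. Control replicate 3 with PNP replicate 2, both odd, gave -0.0068, and control replicate 2 with PNP replicate 3, both even, gave 0.019. The remaining pairs, of unlike columns, gave 0.0064 and 0.030. Pairing and slide position cannot be told apart in these values, so they do not decide whether samples were paired.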

Additional observations from a re-analysis of the deposited data

How the results depend on the processing

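Egr2, Fosb A_55_P2113051 and Junb A_51_P159194 had a higher PNP mean in every alternative run, from 0.14 to 0.59 for Egr2, 0.21 to 0.48 for Fosb and 0.09 to 0.24 for Junb, without a call in any. The number of called probes among the 12 was 0 in all alternatives but the even slide columns alone, where it was 1. Over all probes 3 were called with trend and robust moderation and 2 with slide column as a block. There were 493 in odd and 444 in even columns alone, where 1 group is a single array and the spread rests on 2 arrays of the other, and 0 to 59 when leaving out 1 array: 59 without PNP replicate 1, 14 without control replicate 2, 6 without control replicate 3, 5 without control replicate 1, 1 without PNP replicate 3 and 0 without PNP replicate 2. The fits on 1 set of columns and the values in the shared slide row alone were added after seeing the data. With the replicate block, 0 probes were called, 0 of them among the 12, and 8 of 12 had a higher PNP mean.

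Of the 12 probes, 7 were higher with PNP after median scaling, quantile normalization or in the authors' values (47.0%, 53.4% and 53.6% of all probes), 10 with normexp (67.9%), 5 in even columns alone (62.6%), 10 in odd columns alone (58.3%) and 7 to 10 when leaving out 1 array. Some signs turned. Egr3 A_55_P2787986 took -0.054 with median scaling, -0.064 with quantile normalization and in the authors' values, -0.029 with normexp, -0.17 with slide row as a block or in the shared row alone, and -0.28 in even columns. With normexp, Fosb A_55_P2744102 took 0.029, Fosl1 0.020 and Fosl2 A_55_P2803815 0.049. With slide column as a block, Fosl1 took 0.016 and Jun -0.0023. With slide row as a block or in the shared row alone, Fosl2 A_55_P2803815 took 0.15 and A_51_P507242 -0.13. In odd columns Fosb A_55_P2744102 took 0.18, Fosl1 0.41, Jun -0.20 and Egr3 A_52_P440836 0.54, and in even columns Junb A_55_P2011106 took -0.050 and Jund A_51_P357744 -0.035. Egr3 A_52_P440836 kept its sign in even columns, at -0.998. The cause was not tested.

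Leaving out each array in turn gave -0.41 to 0.074 for Fosb A_55_P2744102, -0.36 to 0.024 for Fosl1, -0.097 to 0.042 for Fosl2 A_55_P2803815, -0.014 to 0.27 for Fosl2 A_51_P507242, -0.12 to 0.19 for Jun, 0.019 to 0.35 for Junb A_55_P2011106, -0.024 to 0.15 for Jund A_51_P357744, -0.22 to 0.14 for Egr3 A_55_P2787986 and -0.78 to -0.032 for Egr3 A_52_P440836. The number of arrays, the dim signal of Egr3 and the outlier spots of Fos, Egr1 and a Jund probe limit what can be shown.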

Other observations

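Btg1, an antiproliferative immediate early gene, had the largest difference among tested genes of the 6 lists and was named after its values were seen. Its scaled log2 signals were -0.86, -0.48 and -1.02 in control replicates 1, 2 and 3 and -0.05, -0.90 and -0.07 in PNP replicates 1, 2 and 3. The difference was 0.45 (SE 0.24, limma adjusted p = 0.756). PNP replicate 2 lay among the controls, and control replicate 2 was the highest control, so the arrays in even slide columns held the higher values in both groups. Npas4, an activity-induced factor of neurons also singled out after its values were seen, had -1.89, -1.97 and -2.13 in controls and -1.96, -1.67 and -1.60 with PNP, a difference of 0.25 (SE 0.13, adjusted p = 0.746), with PNP replicate 1 inside the controls.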
